A study of Homo sapiens with 4 samples.

Results

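The genes described here are 6 transcription factors that drive the epithelial-mesenchymal transition (EMT), SNAI1, SNAI2, ZEB1, ZEB2, TWIST1 and PRRX1, and 3 markers of mesenchymal cells, the cadherins CDH2 and CDH11 and the intermediate filament vimentin (VIM). They are 9 of the 19775 genes that had at least 1 probe set annotated to a single symbol. All 23 probe sets with exactly 1 of these symbols were read, and the probe set with the highest mean intensity over the arrays stands for its gene unless another is named. MCF10A cells, an immortalised and non-tumorigenic line from human breast epithelium, had been infected with retrovirus carrying pQCXIH-YAP-W1W2, pQCXIH-YAP-S94A, pQCXIH-YAP-WT or the empty pQCXIH vector. Total RNA of each culture was hybridised to 1 Affymetrix array, so there are 4 arrays in all. All 4 cultures grew with horse serum, EGF, hydrocortisone, cholera toxin and insulin, and the vector culture shared the infection and the medium with the others. YAP is a coactivator of transcription that the Hippo pathway restrains; S94A alters the region that binds TEAD factors, and W1W2 alters both WW domains. The labels do not say whether a culture was a pool or a clone.

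In EMT, epithelial cells lose adherens junctions and desmosomes and take on a spindle-shaped, motile state. SNAI and ZEB proteins are zinc-finger repressors that bind E-box sequences in the promoters of epithelial genes such as CDH1, which encodes E-cadherin. TWIST1 is a basic helix-loop-helix factor and PRRX1 a paired-type homeodomain factor. Replacement of E-cadherin by N-cadherin, encoded by CDH2, is a classical sign of the transition. Basal mammary cells in culture, MCF10A among them, are known to carry vimentin and SNAI2 without having undergone a full EMT.

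With 1 array for each culture there was no replicate, no error could be estimated, and no test or p-value is given; each difference is between 2 arrays. Intensities at or below 72.9, the 40th percentile of all intensities, were taken as background and set to that floor. Where 1 of the arrays compared was at the floor, the fold is only a bound, given as "at least"; where both were, none is given. Changes were counted past 2-fold. A gene is called measured if its mean intensity over the arrays was at least 113.6, the median over probe sets; 12759 genes and 7 of the 9 described here passed. SNAI1 and CDH11 did not pass. ZEB2 passed through its YAP-WT and vector values, since it lay at the floor with both mutants, so the counts below cover the 7 that passed and not every gene.

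The arrays were similar in overall signal. Their 2% trimmed means ran from 458.4 to 503.3. The median log2 fold over measured genes was 0.10 for YAP-W1W2 over vector, 0.14 for YAP-S94A over vector and 0.14 for YAP-WT over vector, so that changes of this size are the shift of the median gene. The bacterial spike controls bioB, bioC and bioD were lower than on the vector array by 1.00 (mean log2) with YAP-W1W2, 0.73 with YAP-S94A and 0.41 with YAP-WT; their part in the results below was not tested. The ratio of the 3′ to the 5′ control probe set lay between 0.961 and 1.035 for GAPDH and between 0.964 and 1.155 for actin. YAP1 itself had 4657 in YAP-W1W2, 4208.4 in YAP-S94A, 3461.5 in YAP-WT and 4085.5 in vector by the brightest of its 3 probe sets. Another had 3953.5, 4284.6, 3908.4 and 3567.7 in the same order, and the dimmest 1471.9, 1552.2, 871.8 and 1024.8. No YAP1 probe set was 2-fold above vector on any array, so the expressed gene did not check the labels; whether these probes lie within the constructs is not known.

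The cultures carried the transcripts of basal mammary epithelium on every array. The basal keratin KRT5 was between 30481.6 and 33856.2 and KRT14 between 32532.6 and 39724.1, and all 5 basal markers that could be read were above the floor on all arrays. Of 10 luminal markers, 8 were above the floor in YAP-W1W2, 9 in YAP-S94A, 8 in YAP-WT and 9 in vector. Their summed intensity was 105449.6 in YAP-W1W2, 66476.1 in YAP-S94A, 82539.2 in YAP-WT and 34854.8 in vector, and the median log2 fold over vector of the 8 that were measured was 1.15, 0.97 and 1.14 for the YAP forms in that order. Of these 8, 4 were at least 2-fold higher than vector in YAP-W1W2, 4 in YAP-S94A and 5 in YAP-WT. ELF3 was at least 2-fold lower in YAP-W1W2 and YAP-WT. Over all measured genes 11.4%, 10.3% and 9.11% were higher, and 8.4%, 6.53% and 4.95% lower, in the order YAP-W1W2, YAP-S94A and YAP-WT. The luminal sum and median were thus higher on all YAP arrays, but not every luminal marker was. The part of these markers in the results below was not tested. Of 10 fibroblast markers, 7 were above the floor in YAP-W1W2, 8 in YAP-S94A, 6 in YAP-WT and 6 in vector. Their summed intensity was 5583.3, 3172.5, 7035.1 and 11598.5 in that order, and the proteoglycan decorin (DCN) was the brightest of them in YAP-WT and vector, with 248.3 in YAP-W1W2, 288 in YAP-S94A, 3884.2 in YAP-WT and 9343.9 in vector. FAP, a surface protease, had 3690.6 in YAP-W1W2, 1661.7 in YAP-S94A, 1631.2 in YAP-WT and 1220 in vector. COL1A1 had 719.2 in YAP-W1W2, 409.9 in YAP-S94A, 1105.4 in YAP-WT and 451.7 in vector by the brighter of its 2 measured probe sets. The dimmer one ran opposite, with log2 folds over vector of −3.20 in YAP-W1W2, −1.97 in YAP-S94A and −2.29 in YAP-WT. COL1A2 was at most 232.5 and THY1 at most 316.6. The other 5 did not pass the filter on dim genes: COL3A1 was at most 120.3, LUM 113.1, PDGFRA 134.6, PDGFRB 86.4 and COL6A3 76. Of 8 immune markers 3 to 5 were above the floor, with sums of 987.4 to 1735, and PTPRC, which encodes CD45, was at most 74.6. Of 10 endothelial markers 2 were above the floor on each array, with sums of 843.4 to 1072.7, and CDH5 was at most 33. As a second reading of background, 23 genes restricted to other tissues, such as albumin and insulin, were read with the same rule. Their median was 108.9 in YAP-W1W2, 80.6 in YAP-S94A, 118.8 in YAP-WT and 91.2 in vector, and their highest values were 611.2, 348.4, 401.4 and 461.3. Some genes restricted to other tissues thus also read above the floor, although probe sets differ in brightness and levels of different genes cannot be set against each other.

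**Figure D1:**
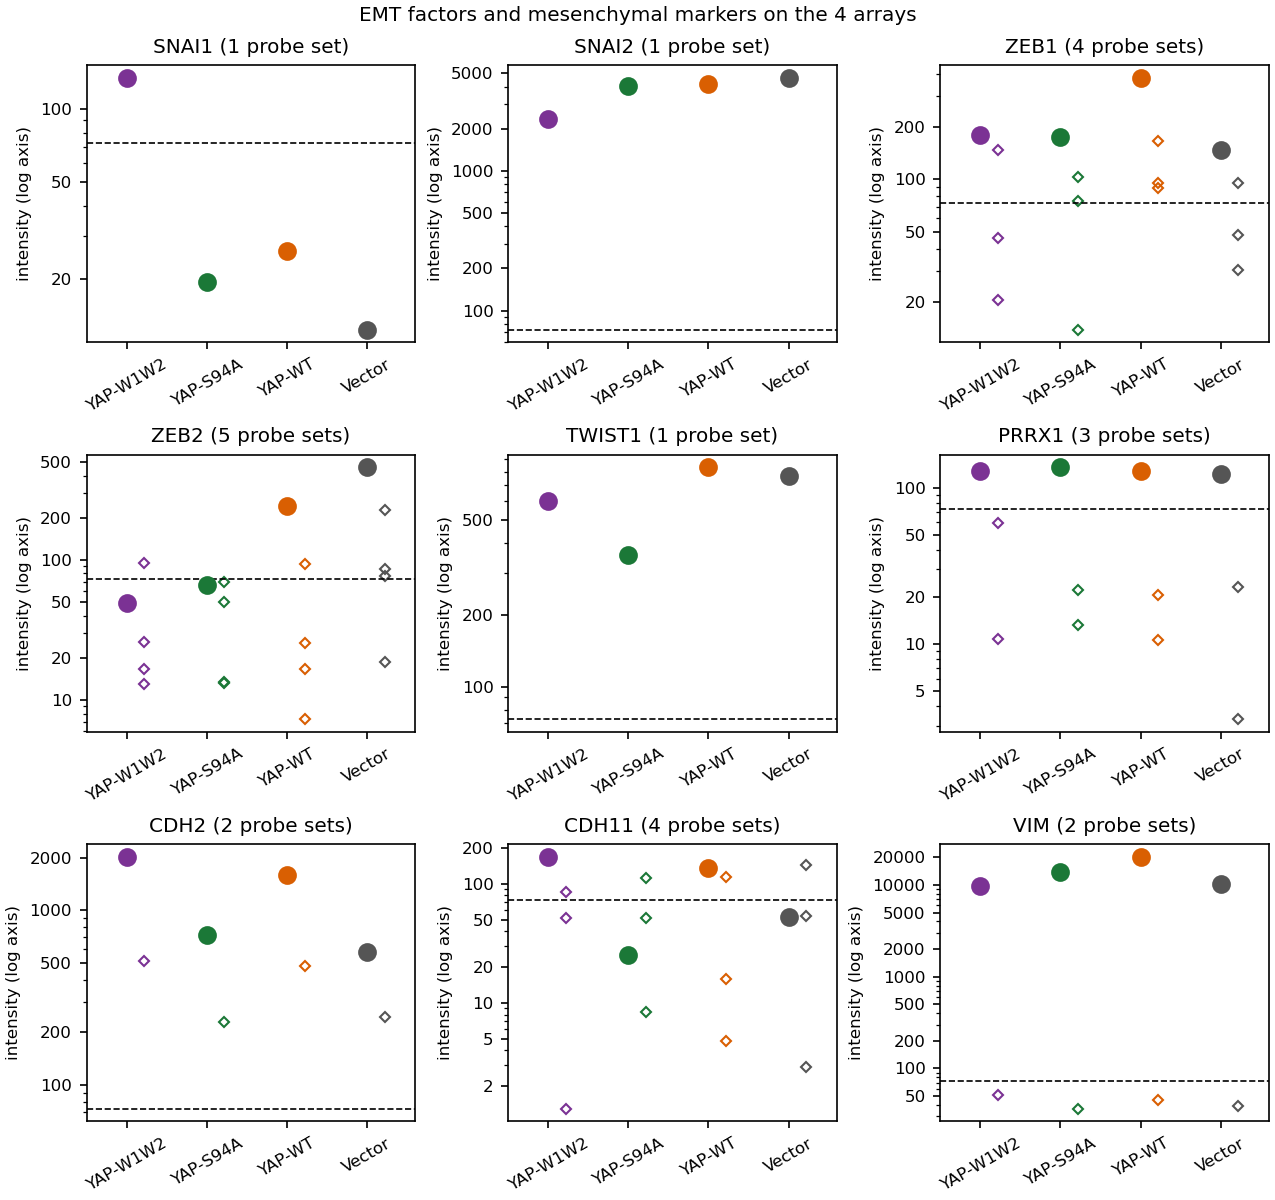
Intensity of every probe set of the 9 genes on the YAP-W1W2, YAP-S94A, YAP-WT and vector arrays, on a log axis that differs between panels. Filled circles are the brightest probe set of each gene, open diamonds its other probe sets, and the dashed line the floor at 72.9. SNAI2, TWIST1, CDH2 and VIM lie above the floor on all 4 arrays by their brightest probe set, as do ZEB1 and PRRX1 at lower intensities, whereas SNAI1, ZEB2 and CDH11 cross it.

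Of the pair of SNAI genes, only SNAI2 was well above background. SNAI2, which encodes Slug and is a regulator of basal mammary cells, had an intensity of 2334 in YAP-W1W2, 4068.1 in YAP-S94A, 4203.4 in YAP-WT and 4618 in vector. The YAP-W1W2 array was the low one, and the other 3 were close together. In such bulk RNA, fewer cells of a type and less RNA per cell cannot be told apart. SNAI2 was 1.98-fold lower in YAP-W1W2 than on the vector array, just under the 2-fold rule, and 1.80-fold lower than in YAP-WT. After each of 3 other scalings of the arrays the log2 fold of YAP-W1W2 over vector was −1.09 to −1.02, past the rule. SNAI2 differed from vector by a log2 fold of −0.18 in YAP-S94A and −0.14 in YAP-WT. SNAI1, which encodes Snail, had 134.8 in YAP-W1W2, 19.4 in YAP-S94A, 26.1 in YAP-WT and 12.3 in vector. Only the YAP-W1W2 value exceeded the floor, and SNAI1 was at least 1.85-fold higher there than on each of the other arrays. Its single probe set did not pass the filter on dim genes. The SNAI1 value is a bound, and with the lower floor at the 20th percentile its log2 fold in YAP-W1W2 over vector was at least 2.50. On the YAP-W1W2 array SNAI1 read above vector and SNAI2 below it. With the intensities as deposited and the floor at 72.9, neither passed 2-fold. The genes restricted to other tissues had a median of 108.9 and a highest value of 611.2 on that array, so a SNAI1 value of 134.8 may be background.

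ZEB1 and ZEB2 encode related repressors with clusters of zinc fingers at either end, and they parted on these arrays. ZEB1 had 180.1 in YAP-W1W2, 175.4 in YAP-S94A, 381.6 in YAP-WT and 147.6 in vector. It was high on the YAP-WT array alone, 2.59-fold above vector, and it was 2.12-fold lower in YAP-W1W2 and 2.18-fold lower in YAP-S94A than in YAP-WT. Its 3 other probe sets were dimmer and did not all follow. By the third brightest ZEB1 again had its highest value in YAP-WT, at 166.8, with 20.3 in YAP-W1W2, 75.1 in YAP-S94A and 95.3 in vector. By the dimmest it was above the floor in YAP-WT only, at 95.6. By the second brightest it had 147.5 in YAP-W1W2, 103.3 in YAP-S94A, 89.2 in YAP-WT and 48.1 in vector, so that YAP-W1W2 was the highest. The direction of ZEB1 in YAP-WT against vector was upwards by all 4 probe sets, and only the brightest passed 2-fold. Averaged over its 4 probe sets, ZEB1 had a log2 fold of 0.72 in YAP-WT over vector, short of 2-fold, and of −0.49 in YAP-W1W2 and −0.61 in YAP-S94A over YAP-WT.

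ZEB2 went the other way. It had 49.3 in YAP-W1W2, 66 in YAP-S94A, 243 in YAP-WT and 457.7 in vector. The vector array was the highest, YAP-WT intermediate, and both mutants lay below the floor. ZEB2 was therefore at least 6.28-fold lower in YAP-W1W2 and in YAP-S94A than on the vector array and at least 3.33-fold lower than in YAP-WT, and it was 1.88-fold lower in YAP-WT than on the vector array. The second brightest ZEB2 probe set had 95.3 in YAP-W1W2, 49.9 in YAP-S94A, 93 in YAP-WT and 226.8 in vector. By this probe set ZEB2 was 2.38-fold lower in YAP-W1W2 than on the vector array, at least 3.11-fold lower in YAP-S94A and 2.44-fold lower in YAP-WT, while YAP-W1W2 and YAP-WT differed by a log2 fold of 0.04. Of the 3 remaining probe sets, the brighter pair were above the floor in vector alone, at 86.5 and 76.5, and the dimmest was below it on all arrays. Vector was thus the highest array for ZEB2 by the 4 probe sets that exceeded the floor on any array, and a 2-fold gap between YAP-WT and the mutants was seen by the brightest probe set only. The fibroblast marker DCN, with the values given above, was highest in vector and next in YAP-WT, as ZEB2 was by its brightest probe set. The mutants cannot be ordered for ZEB2 by that probe set, since both lay below the floor. The summed fibroblast markers were also highest in vector and next in YAP-WT, but much of these sums was DCN itself. It made up 9343.9 of 11598.5 in vector and 3884.2 of 7035.1 in YAP-WT. FAP and COL1A2 ran the other way, highest in YAP-W1W2 and lowest in vector. The part of these markers in the ZEB2 values was not tested. Averaged over its 5 probe sets, ZEB2 had log2 folds of −0.84 in YAP-W1W2 and −0.92 in YAP-S94A over vector, short of 2-fold.

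The promoters of the 9 genes were searched for 2 motifs, the E-box CACCTG that SNAI and ZEB proteins bind and the TEAD element CATTCC, on both strands, so that the letters CAGGTG and GGAATG count too. The windows were RefSeq's on GRCh38.p14, from 250 bases before to 50 bases after a transcription start, and 12 of them matched 5 of the genes: 7 for ZEB1, 2 for CDH2 and 1 each for ZEB2, PRRX1 and VIM. SNAI1, SNAI2, TWIST1 and CDH11 were not matched. An E-box was in 2 of the 12 windows, both of ZEB1, against 20.6% of all 35116 promoter windows. A TEAD element was in 1 of the 12, again of ZEB1, against 14.03% of all. The 2 ZEB1 windows with a match are shown because they hold all of the motifs found, and the ZEB2 window and the outer CDH2 window for comparison. Capitals mark the motifs.
ZEB1, chr10:31318167-31318466, plus strand: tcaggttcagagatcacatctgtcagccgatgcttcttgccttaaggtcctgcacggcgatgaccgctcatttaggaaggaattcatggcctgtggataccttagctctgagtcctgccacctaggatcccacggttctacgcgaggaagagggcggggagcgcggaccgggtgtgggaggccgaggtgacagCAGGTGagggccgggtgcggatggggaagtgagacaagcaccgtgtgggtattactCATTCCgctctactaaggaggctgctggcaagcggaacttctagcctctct
ZEB1, chr10:31318966-31319265, plus strand: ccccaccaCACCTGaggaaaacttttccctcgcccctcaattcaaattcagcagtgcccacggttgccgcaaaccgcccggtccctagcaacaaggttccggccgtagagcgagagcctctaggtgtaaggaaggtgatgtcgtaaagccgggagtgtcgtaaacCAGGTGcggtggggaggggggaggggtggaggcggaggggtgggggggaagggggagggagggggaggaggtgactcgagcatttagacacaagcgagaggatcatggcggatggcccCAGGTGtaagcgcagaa
ZEB2, chr2:144520070-144520369, minus strand: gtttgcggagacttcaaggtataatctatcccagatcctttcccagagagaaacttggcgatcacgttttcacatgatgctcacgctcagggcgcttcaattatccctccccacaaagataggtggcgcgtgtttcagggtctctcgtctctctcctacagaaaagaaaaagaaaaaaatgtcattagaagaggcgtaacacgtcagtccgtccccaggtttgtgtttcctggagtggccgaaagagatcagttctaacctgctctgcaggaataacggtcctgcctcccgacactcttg
CDH2, chr18:28177081-28177380, minus strand: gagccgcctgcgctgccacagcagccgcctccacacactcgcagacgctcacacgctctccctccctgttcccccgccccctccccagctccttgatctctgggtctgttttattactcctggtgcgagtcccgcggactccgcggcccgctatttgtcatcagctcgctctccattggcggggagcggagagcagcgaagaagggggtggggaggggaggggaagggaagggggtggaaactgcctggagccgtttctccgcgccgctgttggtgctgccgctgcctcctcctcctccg
The upper ZEB1 window holds an E-box that begins 57 bases before the start site and the TEAD element, which begins 1 base before it. The lower one holds 3 E-boxes, which begin 242 and 85 bases before the start site and at base 34 of the transcript. The ZEB2 and CDH2 windows hold neither set of letters, which says nothing of sites elsewhere. A match is a description of the letters and does not show that a protein binds there. The arrays do not tell from which of the ZEB1 starts its transcripts came. The windows also differed in composition: GC content was 58.3% and 61.7% in the ZEB1 windows shown, 49.0% in that of ZEB2 and 67.0% in that of CDH2, against a median of 58.7% over all windows.

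TWIST1 was lowest with YAP-S94A. It had 602.3 in YAP-W1W2, 356.1 in YAP-S94A, 834 in YAP-WT and 769.9 in vector. YAP-WT and vector were close, with a log2 fold of 0.12 that turned to between −0.05 and −0.01 under the other scalings of the arrays. TWIST1 was 2.16-fold lower in YAP-S94A than on the vector array and 2.34-fold lower than in YAP-WT, and it was 1.28-fold lower in YAP-W1W2 than on the vector array. This rests on a single probe set. PRRX1, known as a driver of a motile, mesenchymal state, had 128.3 in YAP-W1W2, 135 in YAP-S94A, 127.1 in YAP-WT and 122.3 in vector. No YAP array differed from vector by a log2 fold of more than 0.14, the size of the shift of the median gene. Its other 2 probe sets were below the floor on every array, at no more than 59.4 and 23. PRRX1 was near background on these arrays.

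Among the 7 genes that passed, CDH2, the gene of N-cadherin, was the only one at least 2-fold higher than vector with more than 1 form of YAP. CDH2 had 2028.7 in YAP-W1W2, 726.2 in YAP-S94A, 1593 in YAP-WT and 575.3 in vector. YAP-W1W2 and YAP-WT were high, and YAP-S94A and vector were low. CDH2 was 3.53-fold higher in YAP-W1W2 than on the vector array and 2.77-fold higher in YAP-WT, but 1.26-fold higher in YAP-S94A. Against YAP-WT it was 2.19-fold lower in YAP-S94A and 1.27-fold higher in YAP-W1W2. The second CDH2 probe set had 512.9 in YAP-W1W2, 228.1 in YAP-S94A, 477.7 in YAP-WT and 245.9 in vector, the same arrays being high and low. By that probe set CDH2 was 2.09-fold higher in YAP-W1W2 and 1.94-fold higher in YAP-WT than on the vector array, and 2.09-fold lower in YAP-S94A than in YAP-WT.

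CDH11, a cadherin of mesenchymal and bone-forming cells, showed a like order near background. It had 168 in YAP-W1W2, 25.5 in YAP-S94A, 135.8 in YAP-WT and 52.8 in vector, so that YAP-W1W2 and YAP-WT exceeded the floor and the others did not. CDH11 was at least 2.30-fold higher in YAP-W1W2 than on the vector array or YAP-S94A, and with YAP-WT it was above vector by at least 1.86-fold. The third brightest CDH11 probe set had 84.6 in YAP-W1W2, 51.8 in YAP-S94A, 113.1 in YAP-WT and 53.3 in vector, with the same arrays above the floor. The second brightest ran opposite, with 51.3 in YAP-W1W2, 111.6 in YAP-S94A, 15.9 in YAP-WT and 144.6 in vector, and a further one was below the floor everywhere. The probe sets of CDH11 thus disagree in direction, and CDH11 did not pass the filter on dim genes.

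**Figure D2:**
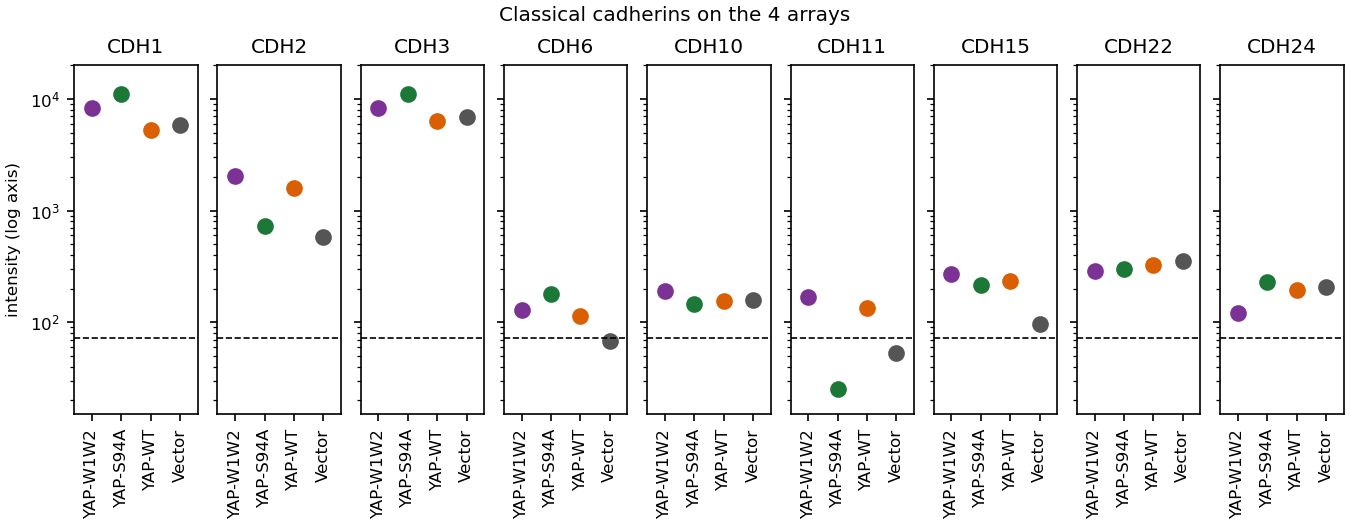
Intensity of the classical cadherins that were measured, and of CDH11, by their brightest probe set on the YAP-W1W2, YAP-S94A, YAP-WT and vector arrays (log axis, dashed line at the floor of 72.9). CDH2 is high in YAP-W1W2 and YAP-WT, at 2028.7 and 1593, whereas CDH1 is highest in YAP-S94A, at 11039.

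Among 19 classical cadherins listed, 17 had a probe set and 8 were measured. CDH1, which encodes E-cadherin, had 8295 in YAP-W1W2, 11039 in YAP-S94A, 5238.7 in YAP-WT and 5828.9 in vector. It was 2.11-fold higher in YAP-S94A than in YAP-WT, and the other measured CDH1 probe set gave a log2 fold of 1.03. Against vector, CDH1 stood at a log2 fold of 0.51 in YAP-W1W2, 0.92 in YAP-S94A and −0.15 in YAP-WT, and its probe sets gave both signs in YAP-WT. CDH2 was thus higher than vector on the YAP-WT and YAP-W1W2 arrays without a 2-fold lower CDH1, and the YAP-S94A array had the highest CDH1. CDH3, the P-cadherin of basal cells, had 8303.6 in YAP-W1W2, 10996.7 in YAP-S94A, 6296.2 in YAP-WT and 6830.4 in vector, with no difference of 2-fold. CDH15, the M-cadherin of muscle, was 2.81-fold higher in YAP-W1W2 than on the vector array, 2.25-fold in YAP-S94A and 2.41-fold in YAP-WT, with an intensity of no more than 271.3. With YAP-S94A, CDH6 was above vector by at least 2.46-fold, at 179.1. Of the 8 measured cadherins, 2 were at least 2-fold higher than vector with each YAP form and 0 lower. Of 6 measured genes for catenins and their linkers, CTNNAL1, which encodes alpha-catulin, was 2.42-fold higher in YAP-W1W2 than on the vector array, 2.98-fold in YAP-S94A and 2.04-fold in YAP-WT, and no other passed 2-fold. Over all measured genes 11.4%, 10.3% and 9.11% were higher than vector in the same order, and 8.4%, 6.53% and 4.95% lower. The catenin count of 1 of 6 is thus near the background, and the CTNNAL1 fold in YAP-WT lay close to the 2-fold rule.

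VIM, the intermediate filament of mesenchymal cells, was far above the floor on every array. It had 9831.5 in YAP-W1W2, 13882.6 in YAP-S94A, 20225.4 in YAP-WT and 10191.2 in vector. YAP-WT was the highest, YAP-S94A intermediate, and YAP-W1W2 was at the level of vector, with a log2 fold of −0.05. VIM was 1.98-fold higher in YAP-WT than on the vector array, just under the 2-fold rule, and 1.36-fold higher in YAP-S94A. It was 2.06-fold lower in YAP-W1W2 and 1.46-fold lower in YAP-S94A than in YAP-WT, and the YAP-W1W2 difference had log2 folds of −0.98 and −0.91, short of the rule, with the arrays scaled to a common trimmed mean or centred on the median. Scaling to a common trimmed mean also lowers the YAP-WT fold over vector, since the trimmed mean was 503.3 in YAP-WT and 458.4 in vector. The other VIM probe set was below the floor on all arrays, at 36.3 to 51.5. VIM and CDH2 therefore did not run together: YAP-W1W2 had the highest CDH2 and the lowest VIM. Of 10 intermediate filament genes of types III and IV, 3 were measured, and the neuronal gene PRPH was at least 2.73-fold higher in YAP-W1W2 than on the vector array, 2.26-fold in YAP-S94A and 3.29-fold in YAP-WT, at no more than 239.9.

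**Figure D3:**
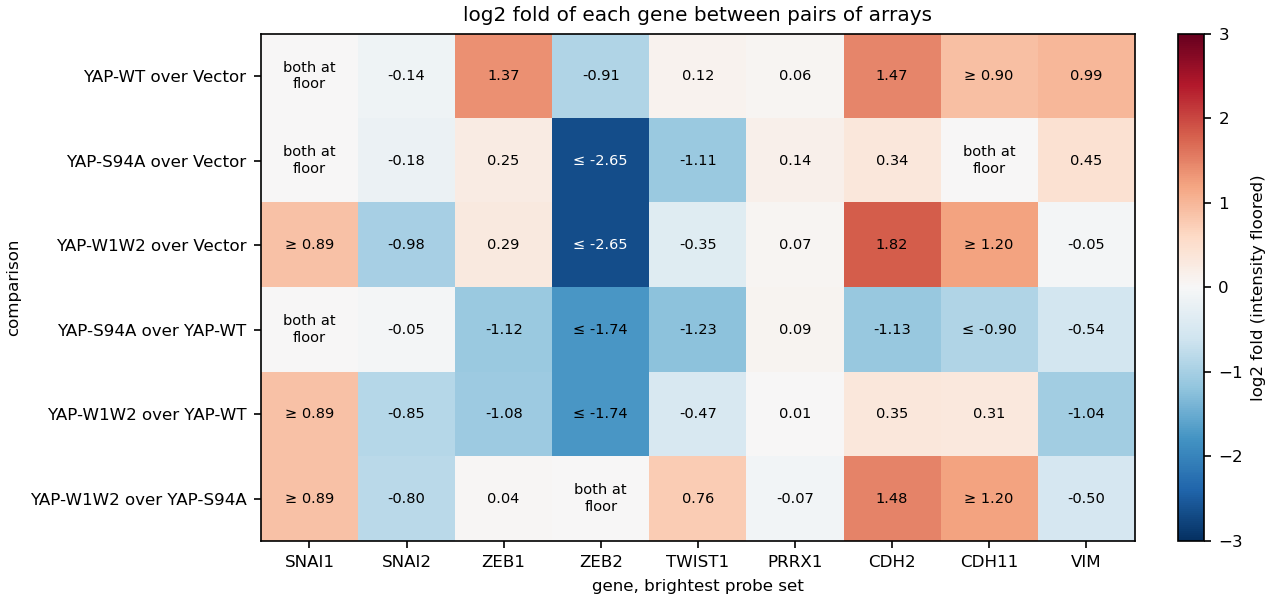
Log2 fold of each of the 9 genes, by its brightest probe set, for 6 comparisons of arrays, with red for higher and blue for lower on the array named first. A sign before a value marks a bound with 1 array at the floor. ZEB2 is lowest in both mutants against vector, at −2.65 or below, and CDH2 is 1.82 in YAP-W1W2 over vector.

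Counted over the 7 genes that passed, 1 was at least 2-fold higher (CDH2) and 1 lower (ZEB2) in YAP-W1W2 than on the vector array, where 11.4% of all measured genes were higher and 8.4% lower. With no filter on dim genes CDH11 joined CDH2, and 8.47% of all genes were higher. In YAP-S94A 0 were higher and 2 lower (ZEB2 and TWIST1), where 10.3% of all were higher and 6.53% lower. In YAP-WT 2 were higher (ZEB1 and CDH2) and 0 lower, where 9.11% of all were higher and 4.95% lower. These 3 comparisons share the vector array. ZEB2 passed the filter only through its YAP-WT and vector values, so its lower calls in both mutants were favoured by the filter. The counts are 0 to 2 of 7 in each direction, and no test was made of their difference from the background shares. The median log2 fold of the 7 was −0.05 in YAP-W1W2, 0.14 in YAP-S94A and 0.12 in YAP-WT, beside 0.10, 0.14 and 0.14 over all measured genes.

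The mutants were also set against YAP-WT. Here too ZEB2 passed the filter only through its YAP-WT and vector values, which favours calling it lower in the mutants. In YAP-S94A against YAP-WT, 4 of 7 were at least 2-fold lower (ZEB1, ZEB2, TWIST1 and CDH2) and 0 higher, where 6.27% of all measured genes were lower and 5.06% higher. The median log2 fold of the 7 was −1.12, beside 0.01 over all. With the mean over all probe sets of a gene, 2 were lower (TWIST1 and CDH2). In YAP-W1W2 against YAP-WT, 3 of 7 were lower (ZEB1, ZEB2 and VIM) and 0 higher, where 5.59% of all were lower and 3.91% higher, and the median was −0.85 beside −0.04. The 3 became 0 with the mean over all probe sets, and 1 after median centring (ZEB2) or without probe sets ending in _s_at or _x_at (ZEB1). In YAP-W1W2 against YAP-S94A, 1 was higher (CDH2) and 0 lower, where 4.98% of all were higher and 4.45% lower; with no filter CDH11 joined it, where 4.08% of all genes were higher. The median of the 7 was 0.00 beside −0.07. With no filter, the median log2 fold of all 9 genes against YAP-WT was −0.90 in YAP-S94A and −0.47 in YAP-W1W2. Over all genes it was 0 in both. YAP-S94A and YAP-W1W2 are both set here against the same YAP-WT array, so a high or low value on that array enters both. By the brightest probe sets ZEB1 and ZEB2 were lower than YAP-WT in both mutants, but ZEB1 had a log2 fold of −0.95 in YAP-W1W2 after median centring, and the second brightest ZEB2 probe set showed no such difference in YAP-W1W2.

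Genes that EMT factors are known to repress were described from a list of 30 epithelial genes, of which 25 were measured. Against vector, 5 were at least 2-fold higher and 5 lower in YAP-W1W2, with a median log2 fold of −0.07. In YAP-S94A 4 passed upwards and 1 downwards (median 0.34), and in YAP-WT 3 upwards and 7 downwards (median −0.53). Over all measured genes 11.4% were higher and 8.4% lower than vector in YAP-W1W2, 10.3% and 6.53% in YAP-S94A, and 9.11% and 4.95% in YAP-WT. The median over all was 0.10, 0.14 and 0.14 in the same order. The 4 higher and 1 lower in YAP-S94A and the 3 higher in YAP-WT are thus near the background. Against YAP-WT, 8 were higher and 0 lower in YAP-W1W2 (median 0.74), and 11 were higher and 1 lower in YAP-S94A (median 0.94). Over all measured genes 3.91% were higher and 5.59% lower in YAP-W1W2 than in YAP-WT, and 5.06% higher and 6.27% lower in YAP-S94A. ESRP1, an epithelial splicing regulator, had 1446.3 in YAP-W1W2, 1526.1 in YAP-S94A, 287.5 in YAP-WT and 1038.9 in vector, low in YAP-WT alone. The tight junction claudin CLDN4 had 82.4 in YAP-W1W2, 1130.3 in YAP-S94A, 54.5 in YAP-WT and 261.2 in vector, high in YAP-S94A alone. The desmoglein DSG3 had 1231.3 in YAP-W1W2, 7711.7 in YAP-S94A, 1863.2 in YAP-WT and 11951.7 in vector, and was low in both YAP-W1W2 and YAP-WT. Other genes of the list were higher than vector with every form. The adhesion protein gene EPCAM was 5.95-fold higher in YAP-W1W2, 4.02-fold in YAP-S94A and 2.10-fold in YAP-WT, and the simple epithelial keratin KRT18 was 6.17-fold, 3.23-fold and 3.03-fold higher in the same order. The EPCAM fold in YAP-WT lay close to the 2-fold rule, and scaling the arrays to a common trimmed mean lowers it. KRT18 was read by a probe set of the _x_at kind, which can bind other transcripts. The list thus held genes that were lower and genes that were higher in YAP-WT than on the vector array.

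A list of 29 further mesenchymal genes had 24 measured. In YAP-W1W2 8 were higher and 2 lower than vector, in YAP-S94A 3 higher and 5 lower, and in YAP-WT 5 higher and 1 lower. The 5 higher in YAP-WT include COL1A1, whose other measured probe set was lower there, with a log2 fold of −2.29 over vector. Over all measured genes 11.4% were higher and 8.4% lower in YAP-W1W2, 10.3% and 6.53% in YAP-S94A, and 9.11% and 4.95% in YAP-WT, so the 2 lower in YAP-W1W2, the 3 higher in YAP-S94A and the 1 lower in YAP-WT are near the background. The median log2 fold of the 24 was 0.30, 0.05 and 0.28 in that order, and the value for YAP-S94A lay between −0.10 and −0.07 under the other scalings. Against YAP-WT, 3 were higher and 3 lower in YAP-W1W2, where 3.91% of all measured genes were higher and 5.59% lower. In YAP-S94A against YAP-WT 3 were higher and 7 lower, where 5.06% of all were higher and 6.27% lower. Fibronectin (FN1) had 16527.2 in YAP-W1W2, 3482.9 in YAP-S94A, 18858.9 in YAP-WT and 7419.2 in vector, which is high on the arrays where CDH2 was high. The lysyl oxidase LOX had 8022.9 in YAP-W1W2, 670.9 in YAP-S94A, 5315.2 in YAP-WT and 2695.1 in vector, again high on those 2 arrays. SPARC, a matricellular protein, had 897.3 in YAP-W1W2, 685.5 in YAP-S94A, 2486.4 in YAP-WT and 425.2 in vector, highest in YAP-WT as VIM was. The smooth muscle gene TAGLN was higher than vector by 5.81-fold in YAP-W1W2, 5.78-fold in YAP-S94A and 3.89-fold in YAP-WT, although another of its 3 measured probe sets gave a log2 fold of 0.70 in YAP-WT. S100A4, also called fibroblast-specific protein, had 641.9 in YAP-W1W2, 1823.6 in YAP-S94A, 4791.6 in YAP-WT and 8661.5 in vector. It was highest in vector and next in YAP-WT, as ZEB2 was by its brightest probe set. Mesenchymal genes thus included some higher and some lower than vector on each YAP array.

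**Figure D4:**
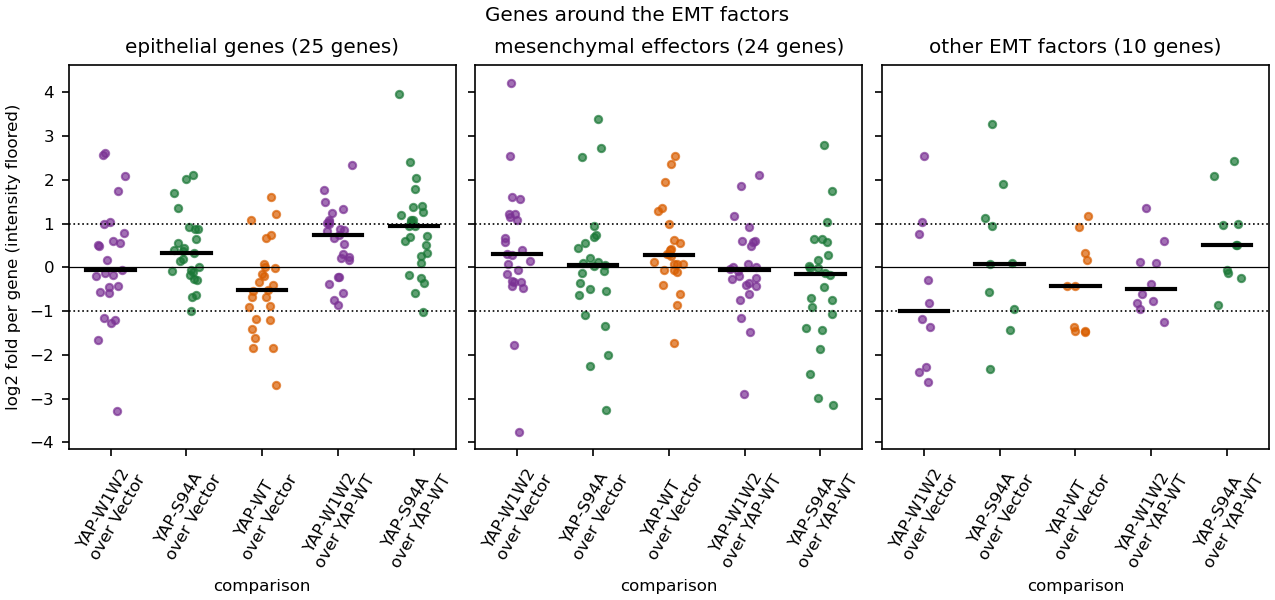
Log2 fold of each measured gene of 3 lists (points) and the median of the list (black bars) for the YAP forms over vector and the mutants over YAP-WT. Dotted lines mark 2-fold. The epithelial genes have a median of 0.94 in YAP-S94A over YAP-WT and −0.53 in YAP-WT over vector, and each panel holds genes on either side of 0.

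Of 15 other transcription factors tied to EMT, 10 were measured. Against vector, 2 were at least 2-fold higher and 5 lower in YAP-W1W2, 3 higher and 2 lower in YAP-S94A, and 1 higher and 4 lower in YAP-WT. Over all measured genes 11.4% were higher and 8.4% lower in YAP-W1W2, 10.3% and 6.53% in YAP-S94A, and 9.11% and 4.95% in YAP-WT. The 2 higher in YAP-W1W2 and the 1 higher in YAP-WT are thus near the background. TCF4, a basic helix-loop-helix factor also called E2-2, had 140.1 in YAP-W1W2, 317.3 in YAP-S94A, 332.6 in YAP-WT and 858.3 in vector, highest in vector as ZEB2 was. The forkhead factor FOXQ1 had 227 in YAP-W1W2, 240.7 in YAP-S94A, 437.9 in YAP-WT and 1200.1 in vector, in the same order. SOX9, a factor of mammary stem and progenitor cells, had 386.3 in YAP-W1W2, 1923.2 in YAP-S94A, 357.9 in YAP-WT and 991.2 in vector. SOX9 was 5.37-fold higher in YAP-S94A than in YAP-WT. The chromatin protein gene HMGA2 was 5.83-fold higher in YAP-W1W2 than on the vector array and 9.63-fold higher in YAP-S94A by its brightest probe set, but its other measured probe set gave log2 folds of −0.29 and 0.16. The relatives SNAI3 and PRRX2 and the homeobox gene GSC did not pass the filter, and GSC was at no more than 8.4.

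Proteins that SNAI and ZEB factors recruit carry out the repression. Of 15 measured corepressor and cofactor genes, 2 were at least 2-fold higher than vector in YAP-W1W2, 3 in YAP-S94A and 2 in YAP-WT, and 0 lower in each. Over all measured genes 11.4%, 10.3% and 9.11% were higher and 8.4%, 6.53% and 4.95% lower in the same order. The higher counts in YAP-W1W2 and YAP-WT and the absence of lower genes are thus near the background. The histone methyltransferase gene SUV39H1 was 3.37-fold higher in YAP-W1W2, 3.41-fold in YAP-S94A and 2.58-fold in YAP-WT, and the arginine methyltransferase gene PRMT5 3.27-fold, 2.80-fold and 2.07-fold. Of 3 measured PRMT5 probe sets the least changed gave log2 folds of 1.09, 0.84 and 0.60. EZH2, the methyltransferase of Polycomb complexes, was 2.58-fold higher in YAP-S94A and accounts for the larger count there. It was 1.86-fold higher in YAP-W1W2 and 1.94-fold in YAP-WT, just under the 2-fold rule. Between YAP forms 0 of the 15 passed 2-fold in either direction. Over all measured genes 3.91% to 6.27% passed per direction in these comparisons, so 0 of 15 is near the background. Of 11 measured genes for the turnover of Snail, LOXL2, a lysyl oxidase known to stabilise Snail, had 2345.3 in YAP-W1W2, 1821.3 in YAP-S94A, 4201.9 in YAP-WT and 1032.4 in vector. FBXW7, which encodes a ubiquitin ligase subunit, was 2.87-fold lower in YAP-W1W2 than on the vector array and 2.04-fold lower in YAP-WT, but of its 3 measured probe sets the least changed gave log2 folds of −0.56 in YAP-W1W2 and −0.63 in YAP-WT. USP27X, which encodes a deubiquitinase of Snail, had 74.8 in YAP-W1W2, near the floor, and 272.8 in vector.

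TGF-beta and its relatives are inducers of EMT factors, and all 11 genes listed for them were measured. The activin subunit gene INHBA had 1135.5 in YAP-W1W2, 208.7 in YAP-S94A, 865.2 in YAP-WT and 167.4 in vector, high on the arrays where CDH2 was high. TGFB2 had 328 in YAP-W1W2, 226.9 in YAP-S94A, 984.8 in YAP-WT and 315.2 in vector, high in YAP-WT as ZEB1 was, although its probe sets disagreed in direction between YAP forms. TGFB1 was 2.60-fold lower in YAP-W1W2 than on the vector array and TGFBR2, a receptor subunit, 2.33-fold higher, or a log2 fold of 0.94 by its other measured probe set. The feedback inhibitor SMAD7 was 3.20-fold lower in YAP-S94A than on the vector array and 2.67-fold lower in YAP-WT.

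For the 4 genes that were above the floor on all arrays and spanned at least 2-fold, the measured genes with the most similar profile were found as those at the smallest Euclidean distance between the 4 log2 intensities, each centred on its own mean, among 11893 genes. CDH2 was nearest to FAM241B (0.12), KCTD15 (0.13) and TEAD1 (0.14), the last encoding a DNA-binding partner of YAP. TEAD1 had 11482.9 in YAP-W1W2, 4336.6 in YAP-S94A, 10307.9 in YAP-WT and 3418.1 in vector, high and low on the same arrays as CDH2. ZEB1 was nearest to the myoglobin gene MB (0.09), CLUHP3 (0.13) and LINC01111 (0.13). TWIST1 was nearest to CSF1R (0.12), MROH1 (0.13) and PIK3CD (0.14), and VIM to GTPBP6 (0.06), GOLGA1 (0.08) and LINC02064 (0.08). With only 4 arrays such likeness is common: 66 genes lay within a distance of 0.5 of CDH2, 148 of ZEB1, 308 of TWIST1 and 483 of VIM.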

How the data were processed

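The deposited table gives 1 linear intensity per probe set and array for the 4 arrays; the submitters' processing notes name GCOS, and biotinylated cRNA was made from Trizol-extracted RNA, per the labels' protocols. The scaling target, the detection calls and a genome build were not given in the sources used here. The highest trimmed mean was 1.098 times the lowest, so intensities were used as deposited, with the floor at 72.9 and then log2. Of 54675 probe sets, 62 controls were kept apart, and 41091 others had 1 gene symbol in the platform annotation, 1801 several and 11721 none. Python 3.11.15, numpy 2.4.6 and pandas 2.3.3 were used. The fold calculation was tested on simulated data. No test was run, since each group holds 1 array. The members and lists were chosen with earlier results of these data known. Genes of the lists were named by a fixed rule: up to 4 measured genes per list and comparison, those with the largest change past 2-fold, or the 2 largest where none passed; the 3 nearest profiles; YAP1; and marker genes. A part of these is named in the text. The number of value columns not used was 0. The 9 alternatives changed the scaling, the floor, the probe set or the filter.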

Additional observations from a re-analysis of the deposited data

How the results depend on the processing

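Of 108 counts of genes past 2-fold recomputed under the 9 alternatives, 93 stayed within 1.5 times the reported count. With the mean over all probe sets, 2 genes were lower with YAP-S94A than with YAP-WT, 0 lower with YAP-W1W2 than with YAP-WT, 0 lower with YAP-W1W2 than vector, 1 lower with YAP-S94A than vector, and 1 higher with YAP-WT than vector; this setting averages in probe sets at the floor. With the arrays scaled to the same trimmed mean, centred on the median or quantile normalized, 2 genes were lower in YAP-W1W2 than in vector, since SNAI2 passed with log2 folds of −1.09 to −1.02. With either of the first 2 of these scalings, or without probe sets ending in _s_at or _x_at, 1 gene, ZEB2, was lower in YAP-WT than in vector. Genes lower in YAP-W1W2 than in YAP-WT numbered 1 after median centring and 1 without those probe sets, which leave VIM unread. With no filter CDH11 joined CDH2, giving 2 higher in YAP-W1W2 than in vector and 2 higher than in YAP-S94A. Without _s_at and _x_at probe sets CDH11 turned to log2 folds of −0.99 in YAP-W1W2 over vector and −0.61 over YAP-S94A, and ZEB2 to 0.035 in YAP-W1W2 over YAP-WT. Of 480 single-gene folds, 441 kept their side of 2-fold. No paired analysis was possible because each group holds 1 array. Signal over background limits SNAI1, ZEB1, ZEB2, PRRX1 and CDH11, whose values lay near the floor on some or all arrays.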

Other observations

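ZEB1 and ZEB2 transcripts are known targets of the miR-200 family and of miR-205, which were not measured here as mature miRNAs. The transcripts that host some of them have probe sets, and these were chosen after their values were seen. MIR200CHG, the host of miR-200c and miR-141, had 416 in YAP-W1W2, 573.4 in YAP-S94A, 325.9 in YAP-WT and 866.3 in vector, by 1 probe set of the _x_at kind, which can bind other transcripts. It was 2.08-fold lower in YAP-W1W2, 1.51-fold lower in YAP-S94A and 2.66-fold lower in YAP-WT than in vector. MIR205HG, the host of miR-205, had 2352.9 in YAP-W1W2, 1718.6 in YAP-S94A, 3068.9 in YAP-WT and 4288.6 in vector, and was 1.82-fold, 2.50-fold and 1.40-fold lower than vector in the order YAP-W1W2, YAP-S94A and YAP-WT. Both hosts were highest in vector, as ZEB2 was. ZEB1 was lowest there by its brightest and second brightest probe sets only. By the third brightest, ZEB1 had 95.3 in vector, above 75.1 in YAP-S94A and 20.3 in YAP-W1W2. By the dimmest it was below the floor on all arrays except YAP-WT. A relation between the hosts and the ZEB genes was not tested. The mature sequences, from RefSeq on GRCh38.p14, are shown with the seed, bases 2 to 8, in capitals, since the seeds of miR-200c and miR-141 differ from each other and from that of miR-205.
hsa-miR-200c-3p, chr12:6963742-6963764, plus strand: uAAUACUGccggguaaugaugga
hsa-miR-141-3p, chr12:6964155-6964176, plus strand: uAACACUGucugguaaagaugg
hsa-miR-205-5p, chr1:209432166-209432187, plus strand: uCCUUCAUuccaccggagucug

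ZEB1-AS1, the antisense gene beside ZEB1, also chosen after its values were seen, had 108.6 in YAP-W1W2, 96.7 in YAP-S94A, 144.6 in YAP-WT and 139.2 in vector. It differed from vector by a log2 fold of 0.05 in YAP-WT, where ZEB1 differed by 1.37.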
